A study of Mus musculus with 10 samples.

Results

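Kv2 channels are voltage-gated potassium channels of the delayed rectifier kind, and Kcnb2 encodes the pore subunit Kv2.2. The genes described here are Kcnb2 and 6 genes of electrically silent subunits: Kcns1, Kcns2 and Kcns3 of the Kv9 subfamily, Kcng1 and Kcng3 of Kv6, and Kcnv1 of Kv8. They were taken by name and matched through their Ensembl identifiers, which found all 7 among the 25006 genes that each count table lists. Counts were present for 4 of the 7 (Kcnb2, Kcns2, Kcns3 and Kcng1), and the other 3 (Kcns1, Kcng3 and Kcnv1) had 0 counts in every library. Of all 25006 listed genes, 10399 (41.6%) also had 0 counts in every library, so such absence is common here. The other silent subunit genes, Kcng2, Kcng4 and Kcnv2, are given beside them.

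Each of the 10 libraries came from 1 neuron, whose cytoplasm and nucleus were drawn into a glass pipette from a brainstem slice of a 3-month-old C57BL/6 mouse. All neurons came from the nucleus of the solitary tract, a relay for visceral signals, in LepRb-Cre; Halo-eYFP mice, so both groups carry the same alleles and a yellow fluorescent protein made where the leptin receptor gene drives Cre. A Cre-dependent reporter stays on in cells whose driver was active earlier, so it marks history as well as current expression. The groups are 5 neurons with type 1 firing (1-1, 1-2, 4-3, 8-2 and 9-1) and 5 with type 2 firing (6-2, 10-1, 10-3, 9-2 and 9-4). What separates the firing types is not explained in the sources used here, no treatment is given, and no animal is named. Each firing type therefore counts as 1 sample: values are shown neuron by neuron, SDs are spread between cells, and no test between the types was made.

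A potassium channel of this kind is built from 4 pore subunits around a central path. Kv2 subunits make working channels by themselves and carry much of the slow outward current that repolarises neurons and shapes repetitive firing. Silent subunits have the same membrane layout but make no current alone. They stay inside the cell unless they join a Kv2 subunit, and the mixed channel opens and closes at other voltages and rates than Kv2 alone. A silent subunit transcript can thus bear on current only in a cell that also makes a Kv2 subunit.

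The coding bases at the end of the last membrane segment, which lines the inner mouth of the pore, show how the 2 kinds differ, and they are printed for Kcnb2 and the 4 silent subunit genes that had counts. The capitals mark 3 codons, the place of the proline, any residue, proline motif of channels that conduct by themselves. They were read 5′ to 3′ from GENCODE M21 transcripts (GRCm38), each window being 45 bases of 1 coding exon: chr1:15710121-15710165 (plus strand) for Kcnb2, chr15:34839687-34839731 (plus) for Kcns2, chr12:11091470-11091514 (minus) for Kcns3, chr2:168262536-168262580 (minus) for Kcng1 and chr8:119625805-119625849 (minus) for Kcng4.
Kcnb2: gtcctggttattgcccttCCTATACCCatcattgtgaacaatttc
Kcns2: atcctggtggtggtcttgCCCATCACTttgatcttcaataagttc
Kcns3: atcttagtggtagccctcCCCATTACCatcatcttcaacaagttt
Kcng1: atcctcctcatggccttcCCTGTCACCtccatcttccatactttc
Kcng4: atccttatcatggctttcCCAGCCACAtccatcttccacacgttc

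Each window was placed by a search for a proline, so the first of the marked codons encodes proline in all 9 genes by construction. The last encodes proline in Kcnb2 and in 0 of the 8 silent subunit genes read, where it is a threonine codon in the 4 printed above. Kcng2 was not read.

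Gene counts ran from 9796799 to 41844825 per library, and a level is given in CPM, the gene's count scaled to a library total of 1000000. Detection here means a minimum of 10 CPM and of 3 counts in that neuron. The libraries of 1-1, 1-2, 4-3 and 6-2 held under 20000000 counts and the other 6 held more, so the shallower set has 3 type 1 neurons and 1 type 2 neuron. Genes at or above 10 CPM numbered 5315 to 7367 per neuron and those with any count 6879 to 10953, with the 3 lowest values of the latter in 1-1, 4-3 and 1-2. Of 9 neuronal marker genes, 7 to 9 were detected in each neuron. Lepr itself was detected in 2 type 1 and 4 type 2 neurons.

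Kcnb2, the gene of Kv2.2, was detected in 1 neuron of each type. Detection in few neurons was common in these libraries. Among the 11923 genes that averaged 1 CPM or more, 36.0% were detected in 3 or fewer neurons, and the median was 5 neurons. Whether Kcnb2 RNA was absent or missed in the neurons below the detection level was not tested. The Kcnb2 gene (ENSMUSG00000092083) lies at GRCm38 chromosome 1, 15287254 to 15723750, on the plus strand. In type 1 neurons Kcnb2 was at 0 CPM in 1-1 and 1-2, 7.96 in 4-3, 0.0239 in 8-2 and 25.5 in 9-1. In type 2 it was at 64.9 CPM in 6-2, 0.0481 in 10-1, 0.110 in 10-3, 0.0351 in 9-2 and 0.572 in 9-4. The highest neuron was 9-1 in type 1, followed by 4-3, and 6-2 in type 2, where the other 4 were under 1 CPM, and the ranges overlapped. Mean Kcnb2 was 6.70 ± 11.1 CPM for type 1 and 13.1 ± 29.0 CPM for type 2 (SD over 5 neurons of each type, n = 5), each SD larger than its mean. The difference of mean log2(CPM + 1), type 2 minus type 1, was -0.19, so CPM and log values differ in sign. The sign also turned when single neurons were left out, from -1.35 without 6-2 to 0.59 without 9-1.

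Levels of different genes were compared per length, as CPM per kb of merged exon (15165 bases for Kcnb2). This assumes that reads cover the whole transcript evenly, which was not tested. On that scale Kcnb2 was at 4.28 CPM per kb in 6-2, 1.68 in 9-1 and 0.525 in 4-3, the last from 78 counts in the shallowest library.

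**Figure D1:**
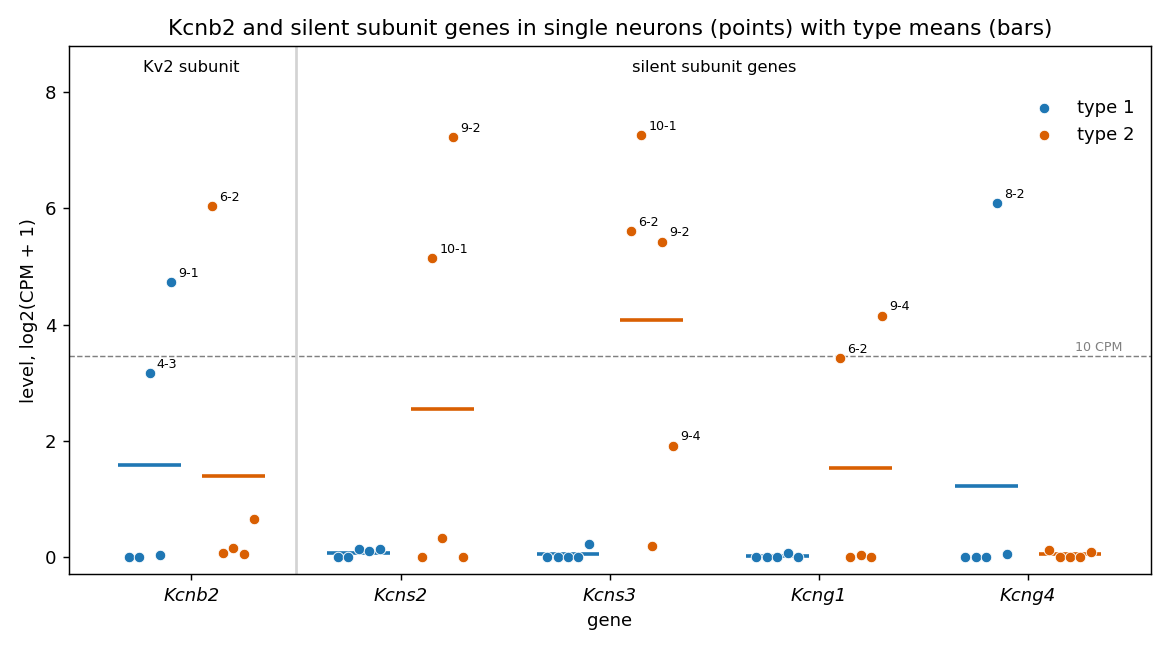
Level of Kcnb2 and of each silent subunit gene with counts, as log2(CPM + 1) on the y axis, in each neuron (points, type 1 blue and type 2 orange, labelled where the value is 1 or more), with bars for the type means and a dashed line at 10 CPM. Kcns2, Kcns3 and Kcng1 rise above the line in type 2 neurons alone, Kcng4 in 8-2 alone, and Kcnb2 in 1 neuron of each type.

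Of the Kv9 genes, Kcns2 and Kcns3 were detected in type 2 neurons alone and Kcns1 in none. Kcns3, the gene of Kv9.3 (ENSMUSG00000043673, chromosome 12, 11090202 to 11151056, minus strand), was at 0 CPM in 4 type 1 neurons and at 0.159 CPM, from 5 counts, in 9-1. In type 2 neurons Kcns3 was at 47.8 CPM in 6-2, 153 in 10-1, 0.138 in 10-3, 41.9 in 9-2 and 2.77 in 9-4. Detection of Kcns3 thus stood at 3 of 5 for type 2 (14.7 to 94.7%, exact binomial 95% interval) and 0 of 5 for type 1 (0 to 52.2%). The binomial intervals cover the number of cells alone and are no comparison of the types. The ranges overlapped through 10-3 alone, whose 5 counts put it below 9-1. Summed over neurons type 1 libraries gave 0.0447 CPM (5 counts, 0.0145 to 0.104 by the exact Poisson 95% interval), while type 2 libraries gave 54.8 CPM (8221 counts, 53.6 to 56.0). These intervals cover the counting of reads alone and not the spread between neurons, so they are no comparison of the types. Neuron 10-1 gave 6350 of the 8221 counts. The log2 difference was 4.04, with SDs between neurons of 0.10 in type 1 and 2.92 in type 2.

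Kcns2, the gene of Kv9.2 (ENSMUSG00000050963, chromosome 15, 34837355 to 34843407, plus strand), followed in fewer neurons. In type 1 it was at 0 CPM in 1-1 and 1-2, 0.102 in 4-3, 0.0717 in 8-2 and 0.0956 in 9-1, which is 1 to 3 counts where any were found. In type 2 it was at 0 CPM in 6-2 and 9-4, 34.3 in 10-1, 0.249 in 10-3 and 149 in 9-2. Its 2 high neurons were both type 2, and the other 3 type 2 neurons lay within or near the type 1 values. Mean Kcns2 was 0.0539 ± 0.0505 CPM for type 1 and 36.8 ± 64.6 CPM for type 2 (SD, n = 5), and the log2 difference was 2.46. Both neurons with Kcns2 also had Kcns3, with the order of the 2 genes turned round. Kcns3 was the higher in 10-1 (48.2 against 6.14 CPM per kb) and Kcns2 in 9-2 (26.7 against 13.3 CPM per kb). Kcns1, the gene of Kv9.1 (chromosome 2, 164163619 to 164171113, minus strand), had 0 counts in all 10 libraries. At 3 counts per library, a count of 0 allows up to 0.0717 CPM in 8-2, the deepest, and 0.306 CPM in 4-3, the shallowest, for counting error only.

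The Kv6 genes were found in single neurons. Kcng1, the gene of Kv6.1 (ENSMUSG00000074575, chromosome 2, 168260117 to 168281736, minus strand), was at 0 CPM in 4 type 1 neurons and 0.0478 CPM, from 2 counts, in 8-2. In type 2 it was at 9.68 CPM in 6-2, 0 in 10-1, 0.0276 in 10-3, 0 in 9-2 and 16.8 in 9-4. It thus passed the detection level in 9-4, and 6-2 lay just below it with 118 counts. The log2 difference was 1.51, and 0.85 without 9-4. Kcng4, the gene of Kv6.4 and not one of the 7 members, was the only silent subunit gene detected in a type 1 neuron. It was at 67.4 CPM in 8-2, from 2820 counts, and at most 0.0820 CPM, from 0 to 2 counts, in the other 9 neurons. Kcng3 (chromosome 17, 83585957 to 83631895, minus strand), Kcng2 and the Kv8 genes Kcnv1 (chromosome 15, 45106284 to 45114920, minus strand) and Kcnv2 had 0 counts in every library, with the same limits as Kcns1. In GENCODE M21 none of these 10 genes shares exon bases with another gene that had counts. The annotation release used for the counting is not given, and reads mapped to the wrong gene were not looked for. The strand option of the counting is not given either, and its effect on the reads of these 10 genes was not tested.

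Between the firing types, 3 of the 7 members (Kcns2, Kcns3 and Kcng1) had a mean log2(CPM + 1) at least 1 higher in type 2, a 2-fold difference on that scale, and 0 had one at least 1 higher in type 1. Of the 11923 genes whose mean over the 10 neurons reached 1 CPM, 31.1% passed the same difference towards type 2 and 21.6% towards type 1, so differences of this size are common between these 2 sets of cells. Only 4 of the 7 members had a mean of 1 CPM, and Kcns2, Kcns3 and Kcng1 reached it through type 2 neurons alone, so their count says nothing beyond their own values. The median difference over all these genes was 0.24. Detection in at least 1 type 2 neuron and in no type 1 neuron, the pattern of these 3 genes, was shared by 12.8% of the genes, and the reverse, the pattern of Kcng4, by 11.4%. When the 5 neurons were summarised by their median, 1 member was past the difference, Kcns3 at 5.42.

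**Figure D2:**
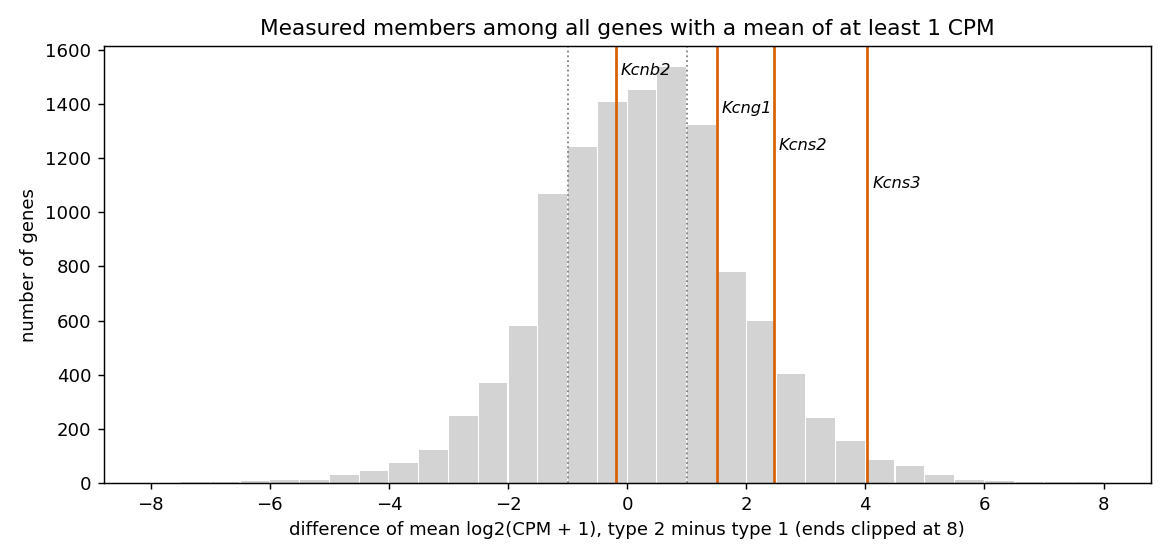
Number of genes (y axis) by difference in mean log2(CPM + 1), type 2 minus type 1 (x axis, bins of 0.5) for the 11923 genes whose mean reached 1 CPM, with dotted lines at -1 and 1 and orange lines at the 4 measured members. Kcnb2 lies near the middle at -0.19, while Kcng1, Kcns2 and Kcns3 lie to the right at 1.51, 2.46 and 4.04.

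These differences held unevenly in subsets of the libraries. Among libraries above 20000000 counts (2 type 1 and 4 type 2 neurons) Kcns3 differed by 3.59, Kcns2 by 3.06, Kcng1 by 1.02 and Kcnb2 by -2.15. Among those below it, where 6-2 is the only type 2 neuron, the values were 5.61 for Kcns3, -0.047 for Kcns2, 3.42 for Kcng1 and 4.99 for Kcnb2. Kcns3 was thus higher in type 2 in both sets, and Kcnb2 changed direction with depth set. Neurons 9-1, 9-2 and 9-4 share a first number across the types, and between them Kcns3 differed by 3.46, Kcns2 by 3.48, Kcng1 by 2.08 and Kcnb2 by -4.38.

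Kcnb2 and a silent subunit transcript met in 1 of 10 neurons. The type 2 neuron 6-2 held Kcnb2 at 64.9 CPM with Kcns3 at 47.8 CPM, and Kcng1, at 9.68 CPM, lay just under the detection level there. That is 1 of 5 type 2 neurons (0.505 to 71.6%, exact binomial 95% interval) and 0 of 5 type 1 neurons (0 to 52.2%), where the interval covers the number of cells alone and is no comparison of the types. Per kb of merged exon, Kcns3 was the highest of the 3 genes in 6-2 at 15.1 CPM per kb, followed by Kcnb2 at 4.28 and Kcng1 at 2.15. Per kb of coding sequence the order was the same, at 32.5, 23.9 and 6.27 CPM per kb, with Kcns3 and Kcnb2 closer together. By CPM alone Kcnb2 was the higher, so their order depends on the scaling by length. These are RNA levels that say nothing of protein.

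The other neurons fell into 3 patterns for these genes. Kcnb2 stood without a detected silent subunit in the type 1 neuron 9-1, where Kcns2 and Kcns3 had 3 and 5 counts. Silent subunits stood without detected Kcnb2 in 4 neurons: the type 2 neurons 10-1 and 9-2 with Kcns2 and Kcns3, the type 2 neuron 9-4 with Kcng1, and the type 1 neuron 8-2 with Kcng4. In these 4 neurons Kcnb2 had 1 to 18 counts, which is 0.0239 to 0.572 CPM. Neither was detected in 1-1, 1-2, 4-3 and 10-3. Of these, 1-1 and 1-2 had 0 counts for all 10 genes, 4-3 had Kcnb2 at 7.96 CPM and 1 count of Kcns2, and 10-3 had 1 to 9 counts of Kcnb2, Kcns2, Kcns3 and Kcng1.

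At least 1 silent subunit gene was detected in 4 of 5 type 2 neurons (28.4 to 99.5%, exact binomial 95% interval) and in 1 of 5 type 1 neurons (0.505 to 71.6%). The intervals cover the number of cells alone and are no comparison of the types. How often other sets of 9 genes give such counts was not tested. The silent subunit genes also met each other: Kcns2 and Kcns3 in 10-1 and 9-2, and no such pair in type 1. In libraries above 20000000 counts a silent subunit gene was detected in 1 of 2 type 1 neurons and 3 of 4 type 2 neurons, and in those below it in 0 of 3 and 1 of 1. In the 3 shallow type 1 libraries 10 CPM stands for 98 to 150 counts, above the minimum of 3. With every library thinned to the smallest total, the differences were 4.04 for Kcns3, 2.44 for Kcns2, 1.51 for Kcng1 and -0.20 for Kcnb2, and the pairing with Kcnb2 was again found in 0 type 1 neurons and 1 type 2 neuron. The detected values of Kcns2, Kcns3 and Kcng1 rested on 529 to 6350 counts, and their type 1 values on 0 to 5. Thinning could thus hardly change them, and nothing is concluded from it. It also does not mimic RNA lost before sequencing. Such loss in 1-1, 4-3 and 1-2, which had the fewest genes with any count, was not tested.

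The detection level decides which neurons count as holding Kcnb2 with a silent subunit. At 1 CPM with at least 3 counts the pairing was again found in 6-2 alone, there with both Kcns3 and Kcng1, and 9-4 then held Kcns3 with Kcng1. At 50 CPM it was found in 0 neurons, since Kcns3 in 6-2 was at 47.8 CPM. At 3 counts with no CPM minimum it was found in the type 1 neuron 9-1 and in 3 type 2 neurons, 6-2, 10-3 and 9-4.

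Genes known to act with Kv2 channels showed no common direction. Of a list of 22, 21 were matched by symbol and 17 had a mean that reached 1 CPM, of which 2 were at least 1 higher in type 2 and 3 at least 1 higher in type 1 (median difference -0.05, against 0.24 over all genes, of which 31.1% and 21.6% passed the same differences). Amigo1, an adhesion protein that travels with Kv2 channels and shifts their opening, was low throughout, with 6.76 CPM in 8-2 and 6.85 CPM in 10-3 as its highest values. Vapa, one of the endoplasmic reticulum proteins that Kv2 channels tether to the surface membrane, passed the detection level in every one of the 10 neurons, with 558 ± 226 CPM for type 1 and 381 ± 114 CPM for type 2 (SD, n = 5). Its relative Vapb was at 16.3 ± 24.4 and 25.2 ± 26.1 CPM (difference 1.33). The phosphatase gene Ptpre, whose product acts on Kv2 channels, was at 37.1 ± 57.4 against 4.14 ± 9.24 CPM (difference -2.84). The ryanodine receptor gene Ryr2 and the calcium channel gene Cacna1c, whose products sit at junctions with Kv2 channels, had differences of -2.30 and -1.30. The auxiliary subunit genes Kcne1, Kcne2, Kcne3 and Kcne4 had 0 counts in every library.

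For Kcns3 and Kcnb2 the genes with the most similar levels over the 10 neurons were listed from 8078 and 8079 candidates (mean of 10 CPM or more, and detection in 3 neurons or more). Nearest to Kcns3 were Kntc1, a kinetochore gene (Pearson r = 0.98, Spearman rho = 0.99 on log2(CPM + 1)), Ccdc130 (0.98 and 0.87) and Paqr4 (0.97 and 0.69). All 3 were high in 6-2, 10-1 and 9-2 and below 1 CPM in the other 7 neurons. Nearest to Kcnb2 were Mettl25 (0.94 and 0.51), Pik3cb, a catalytic subunit of phosphoinositide 3-kinase (0.92 and 0.83), and Ece1, an endothelin-converting enzyme (0.90 and 0.78). These 3 were high in 4-3, 9-1 and 6-2. With n = 10 neurons, 3 of which carry the pattern, and so many candidates, such values describe shared neurons only.

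Transcripts of microglia, the immune cells of the brain, moved with some of the same neurons. The summed level of 18 microglial genes was 0.0668 to 896 CPM in type 1 (median 59.9) and 6.95 to 1958 CPM in type 2 (median 524), with 15, 7 and 16 of the 18 detected in 6-2, 9-2 and 9-4, and 6 in the type 1 neuron 1-2. Some defining microglial genes differed between these neurons. P2ry12 was at 31.1 CPM in 6-2 and 0 in the other 9, and Tmem119 was at 42.0 CPM in 6-2 and 30.0 in 9-4. Cx3cr1 and Fcrls were at 0 in 6-2 and at 120 and 107 CPM in 9-4, and all 4 were at 0 in 9-2 and 1-2. Others were high in both 6-2 and 9-4: Trem2 (117 and 115 CPM), Aif1 (166 and 140), Tyrobp (124 and 112) and Siglech (86.7 and 59.1). C1qa (175 and 54.9 CPM) and Laptm5 (37.1 and 115) lay further apart. Neuron 6-2, with the highest summed microglial level, is the one that held Kcnb2 with a silent subunit. In 10-1, where 0 of the 18 were detected and their sum was 6.95 CPM, Kcns2 and Kcns3 were at 34.3 and 153 CPM. Without 6-2, 9-2 and 9-4 the difference was 3.68 for Kcns3 and 2.66 for Kcns2, both then carried by 10-1, and 0.0062 for Kcng1. The part of microglial RNA in the values of Kcnb2, Kcns2, Kcns3 and Kcng1 in 6-2, 9-2 and 9-4 was not tested.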

How the data were processed

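RNA from 10 single neurons was measured, 1 library each, and grouped by the firing type in the labels. Per the file headers, the authors deposited whole-number read counts per Ensembl gene. The submitters' processing notes name cutadapt 1.13, STAR, HTSeq 0.6.1p1, DESeq2 and mm10; annotation release, strand option and amplification were not given in the sources used here. Without molecular identifiers, reads are not independent molecules, and intervals cover counting error, of reads or of cells, only. From the counts, CPM, differences of mean log2(CPM + 1), exact intervals and CPM per kb of merged exon (GENCODE M21, GRCm38) were computed with Python 3.11.15, pandas 2.3.3 and scipy 1.17.1. TMM factors came from edgeR 4.0.16. No model was fitted, because each neuron is a cell and no animal is named. No library repeated another: the 45 pairwise chi-square values were 619 or more per degree of freedom. The difference procedure was run on simulated counts with counting error alone and no spread between neurons. That checks the calculation only, not how it behaves in these cells.

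The members, gene lists and rules were chosen with earlier results of these data known. Named were all members, the other silent subunit genes, Amigo1 and the 4 measured Kv2 partners furthest apart, and the 3 genes most like Kcnb2 and like any member detected in 3 or more neurons, leaving out unnamed, predicted, ribosomal, mitochondrial and pseudogene entries. Vapa, the Kcne genes and single marker genes were named after their values were seen. Marker lists covered neurons, microglia, astrocytes, the oligodendrocyte lineage and vascular cells. The alternatives were other pseudocounts, scalings, detection levels and filters, thinning, medians, subsets of neurons and leaving out each neuron. Coding bases of the last membrane segment stand in for the protein stretches planned, since no protein table was used here. Some planned items are not reported here, so the pairing was counted with Kcnb2 alone, which had been planned as an alternative.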

Additional observations from a re-analysis of the deposited data

Results flagged for a closer look

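Single neurons far from the rest of their type stood out in 4 of the 10 gene and type combinations looked at, by Dixon's test at the 95% level. Chance passes it in about 1 of 20 groups, a rate that does not hold where 1 value stands against zeros, since any count then passes. Kcnb2 in 6-2, at 64.9 CPM, was far above the other type 2 neurons, of which the next was at 0.572 CPM. Kcng4 in 8-2, at 67.4 CPM, was far above the other type 1 neurons, the next being at 0.0319 CPM. The other 2 cases are of that kind and rest on 5 and 2 counts: Kcns3 in 9-1 at 0.159 CPM and Kcng1 in 8-2 at 0.0478 CPM.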

How the results depend on the processing

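Kcns3 was higher in type 2 in all 20 alternatives run, with differences of 1.86 (pseudocount 10 CPM) to 6.58 (pseudocount 0.1 CPM), and Kcng1 in all 20 with 0.0062 to 3.42. Type 1 neurons had at most 5 counts of Kcns3 and 2 of Kcng1, so most alternatives could hardly turn these signs. The 0.0062 rests on 1 count of Kcng1 in 10-3 and 2 in 8-2. Kcns2 was higher in 19 and turned to -0.047 in libraries under 20000000 counts, whose only type 2 neuron, 6-2, has no Kcns2 counts. Kcnb2 kept its sign in 12 of 20. The count of members higher in type 2 fell from 3 to 1 with medians, and to 2, through Kcng1, with a pseudocount of 10 CPM (0.48), without 6-2, 9-2 and 9-4 (0.0062) and without 9-4 alone (0.85). The count of members higher in type 1 rose from 0 to 1, Kcnb2, with first number 9, in libraries above 20000000 counts, without 6-2, 9-2 and 9-4, and without 6-2 alone, so leaving out single neurons gave 0 to 1. TMM scaling moved the median of all genes from 0.24 to 0.39 and no member's direction. The neurons pairing Kcnb2 with a silent subunit, 0 of type 1 and 1 of type 2, became 0 and 0 at 50 CPM, 1 and 3 at 3 counts, and 0 and 0 without 6-2, 9-2 and 9-4, which leaves out the only neuron with the pairing, a setting chosen after seeing the data, as was silent members only (0 and 1). Leaving out single type 2 neurons gave 0 to 1, the 0 without 6-2. With 0 counts, depth limits Kcns1, Kcng3 and Kcnv1 to 0.0717 to 0.306 CPM per library.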

Other observations

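The summed level of 10 astrocyte genes was 150 to 673 CPM in type 1 and 1045 to 1775 CPM in type 2, with Aldoc as its largest part in every neuron, a glycolytic aldolase gene that some neurons also express. Aldoc was at 147 to 623 CPM in type 1 and 856 to 1775 CPM in type 2, highest in 10-1, the neuron with Kcns2 and Kcns3 and no detected Kcnb2. Of the defining astrocyte genes, Slc1a3, the glial glutamate transporter, had 0 counts in every library, and Aqp4, the water channel of astrocyte endfeet, was at 0.445 CPM or less. Other astrocyte genes were present in some neurons: 5 of the 10 were detected in 6-2, among them Sox9 at 102 CPM and Slc1a2 at 20.7 CPM, and 3 in 9-4, with Sox9 at 52.0 and Aldh1l1 at 51.0 CPM. In 4-3, S100b was at 73.9 CPM and Slc1a2 at 30.6 CPM. Gfap was at 56.1 CPM in 6-2 and 15.6 CPM in 9-1, the 2 neurons in which Kcnb2 was detected, and at 0.191 CPM or less in the others. Sox9 and Slc1a2 did not share this pattern, at 1.85 and 1.12 CPM in 9-1. S100b was at 10.1 CPM in 6-2 and 31.6 CPM in 9-1. It was also at 73.9 CPM in 4-3, where Kcnb2 was at 7.96 CPM, and at 11.5 CPM in 1-2, where Kcnb2 was at 0. The oligodendrocyte lineage list added to 1047 CPM in 9-1, to 2.07 to 141 CPM in the other type 1 neurons and 39.2 to 220 CPM in type 2, and the vascular list to 0.836 to 27.6 and 0.120 to 10.7 CPM. The part of these RNAs in the Kcnb2 values was not tested.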
